A study of Mus musculus with 3 samples.

Results

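The splicing factor genes described here are the 52 of 27998 listed mouse genes whose symbols begin with Srsf and a digit, Hnrnp, Snrp or Sf3. They fall into 4 families: 11 genes of SR proteins, 20 of heterogeneous nuclear ribonucleoproteins (hnRNPs), 12 of small nuclear ribonucleoprotein (snRNP) proteins and 9 of the SF3a and SF3b subunits. All 52 of 52 genes were found by Ensembl identifier in GENCODE M21 (GRCm38). The rule reads symbols alone and uses no measured value, but it was set with earlier results of these data known. A UMI (unique molecular identifier, a tag that marks 1 captured transcript) was found for 51 of 52 genes in at least 1 library, and 48 of 52 reached 50 CPM (UMIs of a gene scaled to a library total of 1000000) in at least 1 library.

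Single-cell profiles came from 3 progenitor populations of C57BL/6J bone marrow, sorted and captured in droplets with 10x 3-prime v2 chemistry, 1 library for each population. No genetic change or treatment is labelled for these animals, and the sources used here give neither their age nor their number. The LMPP sort (lymphoid-primed multipotent progenitors) took cKit+ Sca1+ Flt3+ IL7Ra- B220- cells, and the CLP sort (common lymphoid progenitors) cKit+ Sca1+ Flt3+/- cells that were IL7Ra+ and B220-. The pro-B sort took B220+ IL7Ra+ cKit+ cells that were Sca1- and Flt3-. With 1 library for each population there was no replicate, so no difference between populations was tested, and population and droplet run cannot be told apart. All intervals given are 95% intervals of counting error.

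Introns are removed from pre-mRNA by the spliceosome, a machine built from small nuclear RNAs and their proteins. The Sm proteins (Snrpb, Snrpd1, Snrpd2, Snrpd3, Snrpe, Snrpf and Snrpg) form the ring that sits on the spliceosomal small nuclear RNAs, while Snrpa and Snrpc belong to U1 and Snrpa1 and Snrpb2 to U2. SF3a and SF3b are the parts of the U2 particle that hold the branch site of the intron. SR proteins bind exons and mostly favour the use of nearby splice sites, and hnRNPs coat nascent RNA and often oppose it, so the balance of these families helps to set which exons are kept. Libraries of this kind read the 3-prime end of each transcript: they measure the amount of mRNA of a splicing factor and not which exons it or any other gene kept.

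The kept cells numbered 579 (LMPP), 948 (CLP) and 1106 (pro-B), with 4014657, 5967352 and 7367156 UMIs. The median cell held 6789, 6258.5 and 5687.5 UMIs. Ribosomal protein genes took 43.5%, 41.9% and 29.6% of UMIs, so a share of the total is measured against an uneven background, and values scaled to the total without ribosomal and mitochondrial genes are given where they move a result. Marker genes followed the sorts: the summed level of 8 pro-B markers was 45.1, 782 and 16125 CPM, and that of 6 LMPP markers was 1207, 575 and 18.9 CPM. The CLP library also held 472 of 948 cells with 3 or more UMIs of plasmacytoid dendritic or NK/innate lymphoid markers, against 136 of 579 LMPP and 3 of 1106 pro-B cells, and the 5 plasmacytoid dendritic markers summed to 572 CPM in CLP, 99.1 in LMPP and 1.63 in pro-B. Summed T cell, macrophage, neutrophil and erythroid markers stayed between 0.136 and 52.8 CPM in every library. The libraries shared 3 (LMPP and CLP), 2 (CLP and pro-B) and 1 (LMPP and pro-B) cell barcodes.

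As a group, splicing factor transcripts took a like share of the mRNA in both earlier populations and a larger one in pro-B cells. The 52 genes together held 1.03% (1.02 to 1.04) of UMIs in LMPP, 1.08% (1.07 to 1.09) in CLP and 1.75% (1.74 to 1.76) in pro-B. In single cells the share ran from 0.753% at the 10th percentile through 0.997% at the median to 1.28% at the 90th in LMPP. It ran from 0.759% through 1.02% to 1.37% in CLP and from 0.932% through 1.67% to 2.13% in pro-B, so the lowest pro-B cells overlapped the bulk of the other populations. Relative to UMIs outside ribosomal and mitochondrial genes the shares were 1.92%, 1.96% and 2.56%. The order held in this second scale, with a smaller step to pro-B.

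**Figure D1:**
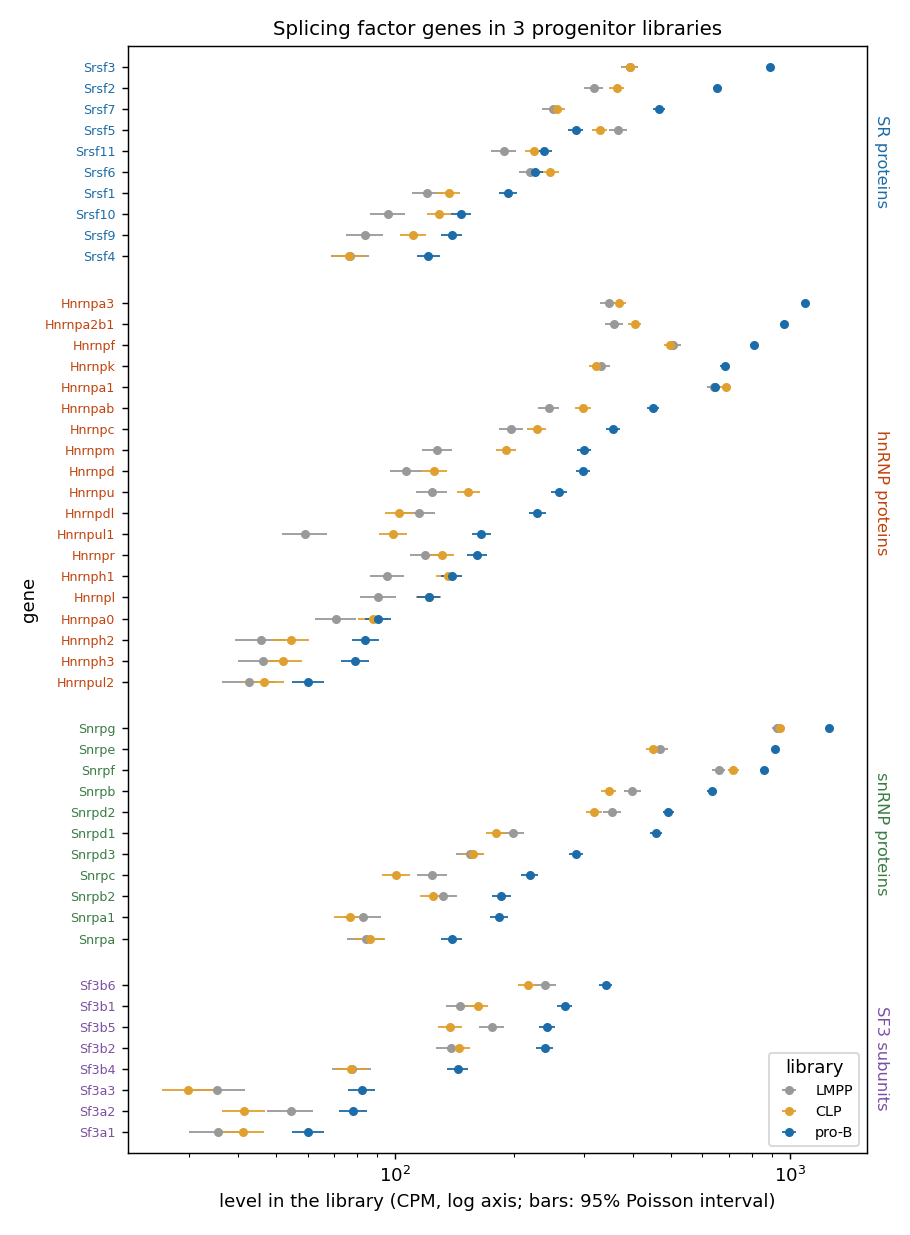
Level of each splicing factor gene with 50 CPM or more in at least 1 library, in CPM on a log axis and grouped by family (grey LMPP, orange CLP, blue pro-B; bars are 95% Poisson intervals). LMPP and CLP points lie close together for most genes, and the pro-B point lies to the right of both for most but not for Srsf5, Srsf6, Hnrnpa1 or Hnrnpl.

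The Sm ring genes were among the most abundant. Snrpg stood at 929.6 CPM (LMPP), 945 CPM (CLP) and 1259 CPM (pro-B), and Snrpf, in the same order, at 661, 719 and 859 CPM. Snrpe stood at 469, 449.8 and 918 CPM, and Snrpb at 399, 347 and 635 CPM. In all 4, pro-B was the highest library in CPM, by 1.19-fold (Snrpf) to 2.04-fold (Snrpe) over CLP. With totals without ribosomal and mitochondrial genes Snrpf was instead slightly below CLP, at a log2 ratio of -0.055. Each captured transcript gives 1 UMI at its 3-prime end whatever its length, so levels of different genes are set side by side here without a length correction.

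Among hnRNPs, Hnrnpa1, which promotes exon skipping, had levels of 641, 687 and 647 CPM from LMPP through CLP to pro-B. Its relatives did not share that level pattern: Hnrnpa2b1 went from 359 and 404 to 964 CPM, and Hnrnpa3 from 347 and 369 to 1090.0 CPM. Hnrnpf, which binds runs of G in RNA, stood at 506, 496 and 810.5 CPM. In LMPP and CLP Hnrnpa1 was the highest hnRNP gene, whereas in pro-B it ranked below Hnrnpa3, Hnrnpa2b1, Hnrnpf and Hnrnpk (684 CPM). Near-identical processed copies of Hnrnpa1 and of several other genes in this group exist in the genome, and the sources used here do not say how reads shared with them were counted.

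Among SR proteins, Srsf3, the smallest of them, stood at 393, 393 and 891 CPM, and Srsf2, which also acts in transcription elongation, at 319, 364 and 655 CPM. Srsf7, close in sequence to Srsf3, stood at 250.3, 257 and 465 CPM. Srsf5 ran the other way, with 367, 330.0 and 287 CPM. The SF3 genes were lower: Sf3b6, the subunit that touches the branch site adenosine, stood at 239, 217 and 341 CPM, Sf3b1, the scaffold of SF3b, at 146, 162 and 269 CPM, Sf3b5 at 175, 138 and 243 CPM, and Sf3b2 at 138, 145 and 239 CPM. In these 4 the pro-B library was again the highest.

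Of the 4 genes under 50 CPM in all libraries, Snrpn, the Sm protein gene best known from neurons, had 0 UMIs, and Srsf12 had 1 UMI, in CLP. Exons of Snrpn overlap those of Snurf on the same strand, and Snurf also had 0 UMIs. Sf3b3 lay just under the minimum, at 49.3, 49.4 and 49.1 CPM. Hnrnpll is described below.

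Promoter windows are shown for 4 genes that differed in how they followed the cell cycle, described further on. Hnrnpa3 and Srsf7 were higher in cycling pro-B cells. Srsf5 and Sf3b1 were lower in G2/M-rich cells over all depths. In CPM they were near or above equality among cells with 3000 to 6000 UMIs. Each window runs from -230 to -31 relative to the RefSeq start (GRCm38.p6, 5′ to 3′ on the gene's strand), with CCAAT, the GC box GGGCGG and the ETS motif CCGGAAG in capitals on either strand. The windows are chr2:75659029-75659228 (+ strand) for Hnrnpa3, chr17:80207336-80207535 (- strand) for Srsf7, chr12:80945269-80945468 (+ strand) for Srsf5 and chr1:55027509-55027708 (- strand) for Sf3b1.
Hnrnpa3: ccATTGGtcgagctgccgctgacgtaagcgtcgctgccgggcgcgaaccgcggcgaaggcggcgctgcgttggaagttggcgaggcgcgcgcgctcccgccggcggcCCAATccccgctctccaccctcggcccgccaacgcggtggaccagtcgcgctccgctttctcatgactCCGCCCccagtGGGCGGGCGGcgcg
Srsf7: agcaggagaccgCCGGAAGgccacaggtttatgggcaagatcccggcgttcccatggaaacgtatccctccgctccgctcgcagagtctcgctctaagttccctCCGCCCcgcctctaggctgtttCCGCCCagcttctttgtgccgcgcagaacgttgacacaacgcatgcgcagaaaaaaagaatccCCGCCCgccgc
Srsf5: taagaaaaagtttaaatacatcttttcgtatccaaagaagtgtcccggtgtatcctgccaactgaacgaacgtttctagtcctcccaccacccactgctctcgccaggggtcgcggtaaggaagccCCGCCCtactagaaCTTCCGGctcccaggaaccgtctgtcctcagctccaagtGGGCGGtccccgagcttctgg
Sf3b1: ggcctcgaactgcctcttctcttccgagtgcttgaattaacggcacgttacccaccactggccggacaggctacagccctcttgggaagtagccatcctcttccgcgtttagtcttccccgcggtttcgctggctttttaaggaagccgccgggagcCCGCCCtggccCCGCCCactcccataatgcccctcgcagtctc

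All 4 windows held GC boxes, and the 4 genes were chosen for display after their values were seen. CCAAT boxes were found in Hnrnpa3 alone of the 4, and the ETS motif in Srsf7 and Srsf5. Over the full promoters of RefSeq, from 250 bases before to 50 after the start, 46 of the 52 genes had an entry. The ETS motif was found in 34.8% of these 46 and in 11.6% of all 17878 promoters, but in 23.4% of the promoters of 2440 genes with 50 CPM or more in at least 1 library and in 34.9% of the 43 members among them. The GC box was found in 69.6% of members and 45.8% of all promoters, but among genes reaching 50 CPM the shares were close, 72.1% of members and 66.6% of all. CCAAT was found in 45.7% of members and 38.4% of all promoters (46.5% and 41.1% among genes reaching 50 CPM), and the E2F motif TTGGCGC in 10.9% and 3.22% (9.30% and 5.25%). The CHR element TTTGAA, known from genes of late cell cycle phases, was found in 15.2% and 15.9% (14.0% and 12.9%), and the E-box CACGTG in 10.9% and 7.98% (11.6% and 10.4%). The palindromic NRF1 motif was found in 0 of 46 members and 1.29% of all promoters. Both strands were searched, CCAAT read on the other strand can share letters with TTGGCGC, and a match is a run of letters and not a bound site.

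From LMPP to CLP no splicing factor gene differed by 2-fold. Of the 45 members that reached 50 CPM in LMPP or CLP, 0 were 2-fold higher in CLP, where 4.71% of all 2570 genes were, and 0 were 2-fold lower, where 2.72% of all genes were. The median log2 ratio of CPM was 0.09 over the members and -0.01 over all genes tested. The families divided: 15 of 18 hnRNP genes (median 0.23) and 8 of 10 SR genes (median 0.17) were above equality, but 4 of 11 snRNP genes (median -0.09) and 2 of 6 SF3 genes (median -0.08).

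Hnrnpul1, an hnRNP U-like protein, had the highest ratio, from 59.0 CPM in LMPP to 98.7 in CLP, a log2 ratio of 0.74 (0.52 to 0.97). Hnrnpm, from 128 to 191 CPM, followed at 0.58 (0.43 to 0.74), then Hnrnph1, a relative of Hnrnpf, at 0.51 (0.33 to 0.69), Srsf10 at 0.43 (0.25 to 0.61) and Hnrnpl, a binder of CA repeats, at 0.43 (0.24 to 0.61). At the other end stood Sf3a2, from 54.3 to 41.4 CPM, at -0.39 (-0.66 to -0.12), Sf3b5 at -0.35 (-0.50 to -0.20), Snrpc of U1 at -0.31 (-0.48 to -0.13), Snrpb at -0.20 (-0.29 to -0.10) and Hnrnpdl, a relative of Hnrnpd, at -0.17 (-0.35 to 0.01). The genes at the top were regulators of splice site choice and those at the bottom mostly core particle proteins. The regulators outside the 52 genes stood on the same side: 13 of 13 SR-like proteins and SR kinases (median 0.29) and 20 of 21 other regulators of splice site choice (median 0.24) were above equality, compared with 1266 of 2570 genes in all. Within low-cycle cells alone (defined below) the member median was -0.01, and the family medians were 0.18 (hnRNP, 12 of 17 above equality), 0.05 (SR, 6 of 10), -0.14 (snRNP, 2 of 11) and -0.21 (SF3, 2 of 6). The summed SR level, 0.10 (log2) in CLP over LMPP in all cells, was -0.03 there.

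Pro-B cells had higher levels than CLP for most splicing factor genes, though the number past 2-fold was close to that of genes at large. Of 48 genes, 11 were 2-fold higher in pro-B (22.9%, compared with 20.8% of all 3002 genes) and 0 were 2-fold lower (9.86% of all genes). In all, 44 of 48 members were above equality, compared with 1945 of 3002 genes, and the median log2 ratio was 0.68 compared with 0.34. With totals that leave out ribosomal and mitochondrial genes each log2 ratio is lower by 0.31: the member median was then 0.37 (0.03 for all genes), 38 of 48 members were above equality, and 3 were 2-fold higher (12.3% of all genes). Leaving out the cells with plasmacytoid dendritic or NK/innate lymphoid markers gave 14 of 49 genes past 2-fold (24.0% of all genes). The member median was then 0.78, compared with 0.38 for all genes.

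**Figure D2:**
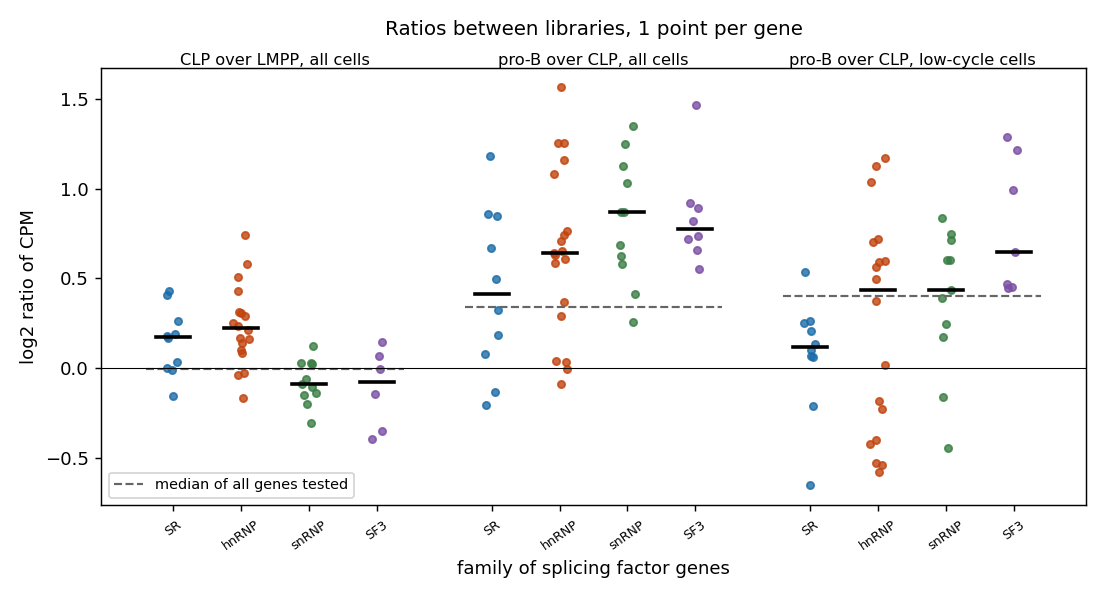
Log2 ratio of CPM for each splicing factor gene (1 point per gene) by family, shown for CLP against LMPP on the left, pro-B against CLP in all cells in the middle and in low-cycle cells on the right; black bars are family medians and dashed lines the median of all genes tested. In all cells the pro-B family medians (0.41 to 0.87) lie above the dashed line at 0.34, and in low-cycle cells the SR median (0.12) lies below the line at 0.40 and the hnRNP and snRNP medians (0.43) close to it.

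Of the SR genes, Srsf3 was the 1 past 2-fold, at 2.26-fold or a log2 ratio of 1.18. Srsf7 stood at 0.86 (0.77 to 0.95) and Srsf2 at 0.85 (0.77 to 0.92). Srsf5 and Srsf6 were the 2 SR genes below equality, at -0.20 (-0.29 to -0.11) and -0.13 (-0.23 to -0.03), with Srsf6 at 247 CPM in CLP and 225 in pro-B. The SR family thus had the lowest median of the 4, 0.41, and a wide range.

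The hnRNP genes past 2-fold in pro-B were Hnrnpa3, Hnrnpa2b1, Hnrnpd, Hnrnpdl and Hnrnpk. Hnrnpa3, a close relative of Hnrnpa1, had the highest ratio of all members, 2.96-fold or a log2 ratio of 1.56. Hnrnpa2b1, which carries RNAs to sites in the cytoplasm as well as acting in splicing, was 2.39-fold higher. Hnrnpd, also known as AUF1 and a regulator of mRNA decay, went from 126 to 299 CPM, or 2.38-fold. At the foot of the family stood Hnrnpa1 at -0.09 (-0.15 to -0.03), Hnrnpl at -0.00 (-0.14 to 0.14) and Hnrnph1 at 0.04 (-0.10 to 0.17). The family median was 0.64, and 17 of 19 were above equality.

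All 11 snRNP genes and all 8 SF3 genes tested were above equality, with medians of 0.87 and 0.78. With totals without ribosomal and mitochondrial genes 10 of 11 snRNP genes and 8 of 8 SF3 genes were. Snrpd1, an Sm ring protein, went from 180.1 to 458 CPM, at a log2 ratio of 1.35, and had the third highest ratio of all members. Snrpa1, Snrpc and Snrpe were the other snRNP genes past 2-fold, at 2.38-fold, 2.18-fold and 2.04-fold. Sf3a3, a subunit of SF3a, went from 29.8 to 82.3 CPM, at 1.46 (1.22 to 1.71). The ratios of Sf3b1, Sf3b2, Sf3b5 and Sf3b6 were alike, 0.73, 0.72, 0.82 and 0.66. Snrpf had the lowest ratio of the core particle genes, 0.26 (0.20 to 0.31), or -0.055 with totals without ribosomal and mitochondrial genes.

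Families of like size and housekeeping kind gave a scale for these values. Genes of mitochondrial ribosomal proteins had a median of 0.63 in pro-B over CLP (11 of 57 past 2-fold) and proteasome genes one of 1.06 (22 of 40 past 2-fold), so the median of the splicing factor genes lay between theirs. Of the other splicing genes, 17 of 87 were 2-fold higher (20.8% of all genes) and 1 was lower (9.86% of all genes), with a median of 0.41. With totals without ribosomal and mitochondrial genes 0 of 57 mitochondrial ribosomal protein genes and 14 of 40 proteasome genes were past 2-fold. Of the other splicing genes 7 were then higher and 4 lower (Lsm3, Mbnl1, Srpk1 and Srpk2). Of all genes 12.3% were higher and 14.4% lower on that scale. The highest were Puf60, a helper of 3-prime splice site recognition, from 50.3 to 145 CPM (1.53), Magoh of the exon junction complex, from 84.3 to 237 CPM (1.49), and Ppih, a tri-snRNP protein, from 35.2 to 98.8 CPM (1.49). The lowest were Srpk2, a kinase of SR proteins, at -1.30, Lsm3 of the U6 ring, from 427 to 236 CPM (-0.85), and Mbnl1, a regulator of exon choice, from 265 to 152 CPM (-0.80). Those 3 had been the highest of the pathway in CLP over LMPP, at 0.90, 0.77 and 0.56, a pair of ratios that share the CLP library.

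The groups of these other splicing genes had unlike medians in the step to pro-B. Those of the tri-snRNP (0.99), the exon junction complex (0.94) and the Lsm ring (0.93) were above the median of 0.34 of all genes. So were those of the branch site and 3-prime splice site factors (0.91) and the Prp19 complex, helicases and catalytic step factors (0.69). Not all core genes stood so high, with the snRNP assembly genes at 0.43 (0 of 4 past 2-fold) and the U1 and minor spliceosome proteins at 0.27 (0 of 7). The SR-like proteins and SR kinases had a median of -0.12, with 6 of 13 above equality, and the other regulators 0.18, with 12 of 22 above. Among the members the snRNP and SF3 families had higher medians than the SR and hnRNP families.

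Pro-B set against LMPP had 12 of 48 members 2-fold higher (21.5% of all genes), 0 lower (10.1% of all genes) and a median of 0.77 compared with 0.36. The order of the families was another one: the hnRNP genes had the highest median, 0.88 (7 of 19 past 2-fold), followed by the SF3 (0.77), snRNP (0.72, 2 of 11) and SR genes (0.67). With totals without ribosomal and mitochondrial genes, 4 members were 2-fold higher (13.6% of all genes). This comparison shares the pro-B library with the one before. Hnrnpa3 was again the highest, at 1.65, followed by Hnrnpd (1.49), Hnrnpul1 (1.49), Hnrnpa2b1 (1.42) and Hnrnpm, which binds GU-rich RNA (1.24). For Hnrnpul1 and Hnrnpm the levels climbed over both steps, from 59.0 through 98.7 to 165 CPM and from 128 through 191 to 301 CPM. Srsf5 was the 1 member below equality, at -0.36, and Hnrnpa1 (0.01), Srsf6 (0.04), Srsf11 (0.34) and Hnrnpa0 (0.36) were the next lowest.

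Hnrnpll followed none of this. It is known as a factor that makes lymphocytes skip variable exons of Ptprc (CD45), and B220, the antigen used to sort pro-B cells, is a long form of CD45. Its level was 23.7 CPM in LMPP (95 UMIs), 12.1 in CLP (72 UMIs) and 1.22 in pro-B (9 UMIs). The log2 ratio was -0.97 (-1.43 to -0.51) for CLP over LMPP and -3.30 (-4.49 to -2.30) for pro-B over CLP. A UMI of Hnrnpll was found in 89 of 579 LMPP cells, 64 of 948 CLP cells and 8 of 1106 pro-B cells. Within CLP its level was 11.9 CPM in cells with plasmacytoid dendritic or NK/innate lymphoid markers and 12.2 CPM in the rest. It lay under the minimum of 50 CPM in every library and is in none of the counts above. The gene spans chr17:80029487-80062334 in GRCm38.

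Pro-B cells also differed from the earlier populations in cell cycle transcripts. After each cell was thinned to 2000 UMIs, cells with 3 or more UMIs of 30 G2/M genes (such as Top2a and Mki67) were called G2/M-rich, those with fewer but 3 or more UMIs of 25 S phase genes (such as Mcm2 and Pcna) S phase, and the rest low-cycle. No splicing factor gene is in either list. G2/M-rich cells made up 63.5% of pro-B cells, 5.76% of LMPP and 8.59% of CLP, and low-cycle cells 21.7%, 61.8% and 54.2%. The pro-B library held 232 low-cycle, 159 S phase and 679 G2/M-rich cells, and 36 shallower cells were left out.

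Within the pro-B library splicing factor transcripts took 1.16% (1.14 to 1.18) of UMIs in low-cycle cells, 1.69% (1.66 to 1.72) in S phase cells and 1.85% (1.83 to 1.86) in G2/M-rich cells. The mean cell held 38.4, 92.9 and 153.8 UMIs of the 52 genes. Low-cycle cells of LMPP and CLP held 0.976% and 0.968%. Relative to UMIs outside ribosomal and mitochondrial genes, low-cycle cells held 1.83% (LMPP), 1.80% (CLP) and 1.71% (pro-B), so on that scale the order was turned round, while S phase and G2/M-rich pro-B cells held 2.56% and 2.69%. Several measures moved with the classes: median UMIs per cell were 3052, 4337 and 7762, the ribosomal share was 29.6%, 31.7% and 29.4%, and the summed pro-B markers stood at 29460, 17955 and 13826 CPM. Their part in the result was not tested beyond the depth band given further on.

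**Figure D3:**
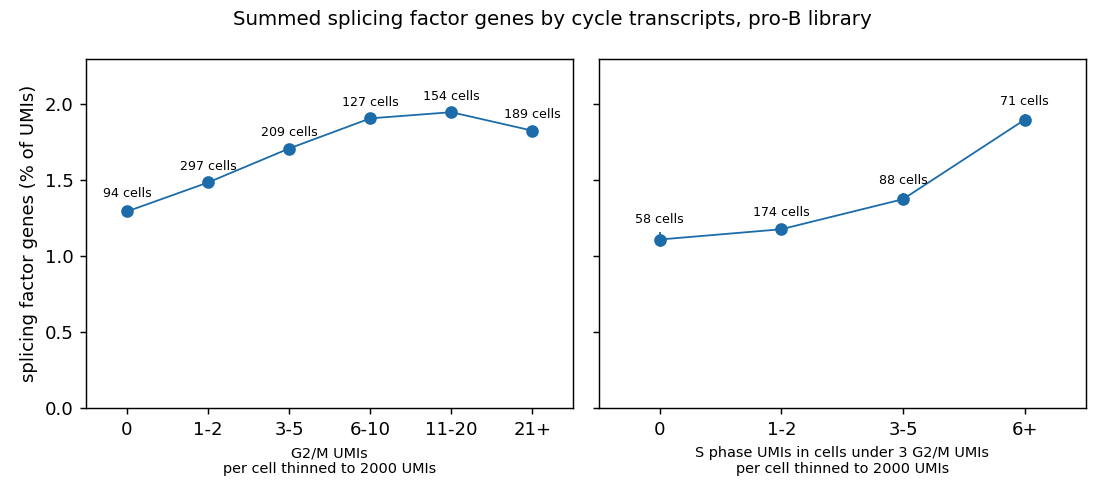
Summed share of UMIs from the 52 splicing factor genes in pro-B cells, in percent, binned by UMIs of the G2/M list (left) and, among cells with fewer than 3 G2/M UMIs, by UMIs of the S phase list (right), both per cell thinned to 2000 UMIs; bars are 95% intervals, most of them smaller than the point, and the number of cells stands above each point. The share climbs from 1.29% to 1.95% and then stands at 1.83% in the last bin on the left, and climbs from 1.11% to 1.90% on the right.

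The share followed both lists in steps. Among cells under 3 G2/M UMIs it was 1.11% with 0 S phase UMIs, 1.18% with 1 to 2, 1.38% with 3 to 5 and 1.90% with 6 or more. By G2/M UMIs it was 1.29%, 1.48%, 1.71%, 1.91% and 1.95% up to the bin of 11 to 20 UMIs and 1.83% in cells with 21 or more, where the ribosomal share was also the lowest, 24.1%. Relative to UMIs outside ribosomal and mitochondrial genes the same bins held 1.92%, 2.22%, 2.63%, 2.92%, 2.81% and 2.47%. On that scale the share was highest at 6 to 10 G2/M UMIs. Depth moved too: median UMIs were 3162.5 with 0 G2/M UMIs and 9298 with 6 to 10. They were 3044.5 with 3 to 5 S phase UMIs and 7048 with 6 or more. The part of depth in these steps was not tested. Members differed in where along the G2/M axis they stood highest. Hnrnpa3 was highest in the last bin (601 CPM at 0 G2/M UMIs, 1506 at 21 or more), whereas Srsf7 was highest at 6 to 10 G2/M UMIs (562 CPM, with 436 in the last bin) and at 6 or more S phase UMIs (658 CPM). Srsf2 (795 CPM at 6 to 10, 563 at 21 or more), Hnrnpab (579 and 404 CPM) and Snrpd1 (572 and 449 CPM) shared the pattern of Srsf7.

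S phase cells compared with low-cycle cells had 21 of 47 members 1.5-fold higher, compared with 15.9% of all 3001 genes, and 1 lower, Hnrnph2, compared with 21% of all genes. The member median log2 ratio was 0.53 and that of all genes -0.08. The highest were Hnrnpab, an hnRNP of the A/B type, from 163 to 458 CPM at 1.49, Sf3b3, from 19.5 to 55.0 CPM at 1.49 (0.63 to 2.44), Snrpd1, from 167 to 436 CPM at 1.39 (1.10 to 1.69), and Srsf7, from 215 to 532 CPM at 1.31 (1.05 to 1.57). The lowest were Hnrnph2, from 100.2 to 64.2 CPM at -0.64 (-1.17 to -0.13), Srsf5 at -0.52 (-0.77 to -0.27), Hnrnpul1 at -0.38 (-0.72 to -0.04) and Sf3b1 at -0.22 (-0.49 to 0.04).

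G2/M-rich cells compared with low-cycle cells had 26 of 49 members 1.5-fold higher, compared with 20.3% of all 3055 genes, and 0 lower, compared with 25.8%. The median was 0.64 compared with -0.09. The low-cycle class is shared with the comparison before. Genes of mitochondrial ribosomal proteins had a median of 0.29 (16 of 59 higher) and proteasome genes 0.33 (6 of 42 higher), both below the median of the splicing factor genes. The SR genes had 7 of 10 higher with a median of 0.73, the snRNP genes 6 of 11 with 0.65, the hnRNP genes 10 of 19 with 0.60 and the SF3 genes 3 of 9 with 0.40.

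**Figure D4:**
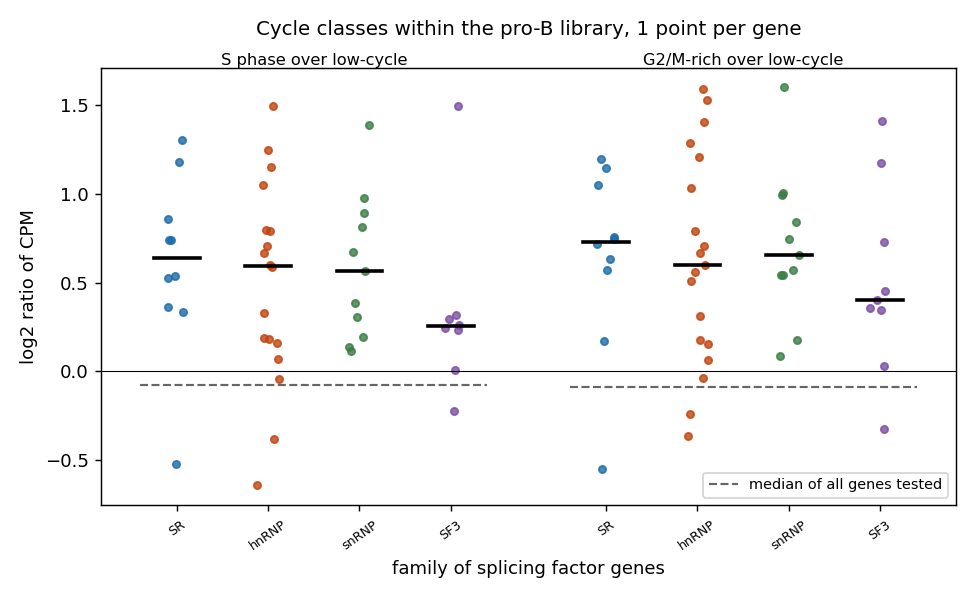
Log2 ratio of CPM for each splicing factor gene by family within the pro-B library, S phase over low-cycle cells (left) and G2/M-rich over low-cycle cells (right); black bars are family medians and dashed lines the median of all genes tested (-0.08 and -0.09). Most points lie above the dashed lines, and 1 SR gene, Srsf5, lies at -0.52 and -0.55.

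Snrpd1 had the highest ratio in G2/M-rich cells, from 167 to 505 CPM at 1.60 (1.35 to 1.87). Hnrnpab, from 163 to 491 CPM, stood at 1.59 (1.33 to 1.86), Hnrnpdl, from 88.5 to 255 CPM, at 1.53 (1.18 to 1.90), and Sf3b3, from 19.5 to 52.0 CPM, at 1.41 (0.67 to 2.27). Of the abundant genes, Hnrnpa3 went from 497 to 1214 CPM, Srsf3 from 463 to 962 CPM and Srsf2 from 315 to 698 CPM. Srsf7 went from 215 to 493 CPM, and Snrpg from 673 to 1350 CPM.

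The 4 lowest members were below equality. Srsf5 went from 398 to 272 CPM, at -0.55 (-0.73 to -0.37). Hnrnpul1 went from 206 to 160.0 CPM, at -0.36 (-0.61 to -0.11), Sf3b1 from 323 to 258 CPM, at -0.32 (-0.52 to -0.12), and Hnrnph2 from 100.2 to 84.7 CPM, at -0.24 (-0.59 to 0.12). Srsf5 was not lowest at the top of the G2/M axis: it stood at 312 and 340.2 CPM in cells with 0 and 1 to 2 G2/M UMIs, at 242 CPM with 6 to 10 and at 325 CPM with 21 or more.

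**Figure D5:**
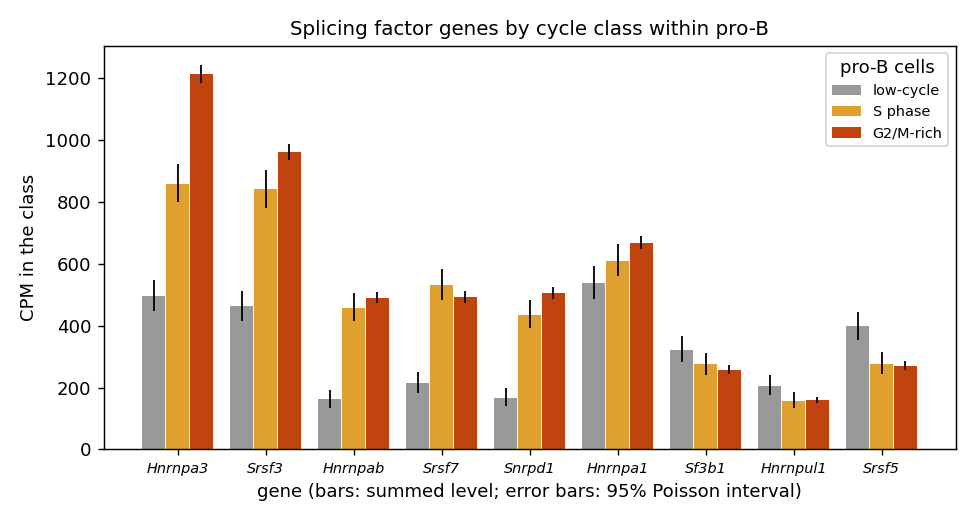
Level in CPM of 9 splicing factor genes in low-cycle (grey), S phase (orange) and G2/M-rich (red) pro-B cells, as sums over the cells of each class with 95% Poisson intervals. Hnrnpa3, Srsf3, Hnrnpab, Srsf7 and Snrpd1 are lowest in low-cycle cells, Hnrnpa1 differs less (539, 611 and 669 CPM), and Sf3b1, Hnrnpul1 and Srsf5 are highest in low-cycle cells.

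Since low-cycle cells held fewer UMIs, the classes were also compared among cells with 3000 to 6000 UMIs (114 low-cycle, 56 S phase and 157 G2/M-rich cells), a band chosen after seeing the data. There 19 of 48 members were 1.5-fold higher in S phase cells (16.4% of all genes) and 22 of 48 in G2/M-rich cells (19.5% of all genes), with medians of 0.46 and 0.56. Hnrnpab (1.42) and Hnrnpdl (1.28) had the highest ratios in G2/M-rich cells. In CPM Srsf5 stayed below equality, though nearer to it than over all depths, and Hnrnpul1 and Sf3b1 did not stay below. The lowest hnRNP gene stood at -0.49 in S phase and -0.15 in G2/M-rich cells. In G2/M-rich cells Srsf5 stood at -0.04 (-0.33 to 0.25), Hnrnpul1 at 0.03 (-0.37 to 0.43) and Sf3b1 at 0.32 (0.00 to 0.66). In S phase cells Srsf5 stood at -0.15 (-0.56 to 0.26) and Sf3b1 at 0.00 (-0.47 to 0.46). Low-cycle and G2/M-rich cells of this band still differed in ribosomal share (30.8% and 24.6%) and median UMIs (3701.5 and 4760). With totals without ribosomal and mitochondrial genes each G2/M-rich log2 ratio shifted by -0.13. Hnrnpul1 was then below equality, Srsf5 stood at -0.17 and Sf3b1 at 0.19. On that scale 15 of 48 members were 1.5-fold higher (15.5% of all genes), with a median of 0.43.

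Of the other splicing genes, 26 of 86 were 1.5-fold higher in G2/M-rich cells (20.3% of all genes) and 7 lower (25.8%), with a median of 0.30. The Lsm ring genes led, with 6 of 9 higher and a median of 0.85: Lsm2 reached 319 CPM in G2/M-rich cells (1.75), and Lsm5 went from 150.9 to 449.0 CPM (1.57). Ppih, from 31.2 to 113 CPM (1.86), was the highest of all. The lowest were Mbnl2, a relative of Mbnl1, from 108 to 40.8 CPM (-1.40), Rbm5, a regulator of apoptosis genes' exons, from 138 to 64.9 CPM (-1.09), and Slu7, a factor of the second catalytic step, from 66.4 to 33.6 CPM (-0.98). The SR-like proteins and SR kinases, which include Clk3, had a median of 0.07 and the other regulators one of 0.25. The medians of the tri-snRNP and branch site groups were 0.45 and 0.39, and that of the snRNP assembly genes -0.15. In S phase cells 20 of 88 pathway genes were higher (15.9% of all genes) and 8 lower (21% of all genes). Lsm2 (1.35), Taf15 (1.19) and Ppih (1.19) were highest and Mbnl2 (-0.94), Clk3 (-0.89) and Slu7 (-0.73) lowest. Fewer pathway genes were lower among cells with 3000 to 6000 UMIs. In S phase cells it was 1 of 88, Lsm10 (11.4% of all genes), and in G2/M-rich cells 3 of 89, Lsm10, Srpk1 and Srpk2 (12.6% of all genes). Lsm10 was counted because the list used places it with the Lsm ring, which does not show a role in splicing. In this band Mbnl2 stood at -0.47 (-1.10 to 0.17), Rbm5 at -0.58 (-1.12 to -0.03) and Slu7 at -0.26 (-1.02 to 0.53) in G2/M-rich cells. In S phase cells 23 of 88 pathway genes were higher there (16.4% of all genes), and in G2/M-rich cells 30 of 89 (19.5% of all genes). With totals without ribosomal and mitochondrial genes 21 of 89 were higher and 6 lower in G2/M-rich cells of this band. The share of all genes higher on that scale is the one given with the members above.

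The step to pro-B was smaller when only low-cycle cells were compared. These cells differed in depth between libraries, with medians of 6319.5 (LMPP), 5950.5 (CLP) and 3052 (pro-B) UMIs. The part of depth in the values below was not tested. In low-cycle cells of pro-B and CLP, 5 of 46 members were 2-fold higher in pro-B (21.5% of all genes) and 0 were lower (9.12% of all genes), and the member median of 0.41 lay beside that of all genes, 0.40. In low-cycle cells of pro-B and LMPP, 4 of 46 were 2-fold higher (21% of all genes) and 0 lower (10.1%), with a median of 0.26 compared with 0.36. With totals without ribosomal and mitochondrial genes 0 of 46 were 2-fold higher than in CLP (12.7% of all genes), with a median of 0.07, and 1 of 46, Hnrnpul1, than in LMPP (13.6% of all genes), with a median of -0.09. The 5 higher than in CLP were Sf3a3 (1.29), Sf3b4 (1.21), Hnrnpul1 (1.17), Hnrnph2 (1.12) and Hnrnpk (1.04), and of these Sf3a3 and Hnrnpk were among the 11 found over all cells. Sf3b1, at 162 CPM in low-cycle CLP and 323 in low-cycle pro-B cells, stood at 0.99 (0.76 to 1.22). Hnrnpa3 went from 305 to 497 CPM, at 0.71 (0.53 to 0.88), and Srsf3 at 0.53 (0.35 to 0.71). Snrpd1 had a ratio of 0.25 (-0.05 to 0.54), down from 1.35 over all cells. Among the members lower in pro-B here were Srsf6 (-0.65), Hnrnpl (-0.58), Hnrnpab (-0.54) and Snrpg (-0.45).

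The proteasome genes kept a median of 0.94 in low-cycle pro-B over CLP cells, with 19 of 39 past 2-fold, and the genes of mitochondrial ribosomal proteins one of 0.54. By family, the medians of the splicing factor genes were 0.12 (SR), 0.43 (hnRNP), 0.43 (snRNP) and 0.64 (SF3). The SF3 genes thus had the highest family median in this comparison and, over all depths, the lowest among the cycle classes. Among cells of 3000 to 6000 UMIs their median in G2/M-rich cells was 0.45, compared with 0.43 for the snRNP genes. In S phase cells of that band the 2 medians were 0.30 and 0.31.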

How the data were processed

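The deposited values are UMI counts of each gene in each barcode. Per the submitters' processing notes the authors used Cell Ranger with mm10. Its version, annotation and cell calling rule: not given in the sources used here. A barcode was kept with at least 500 genes and no more than 10% mitochondrial UMIs. Scrublet called 30, 14 and 2 cells as doublets (LMPP, CLP, pro-B), which were kept in the main values. Counts were summed over cells and divided by the total to give CPM. Ratios have exact conditional (Clopper-Pearson) intervals and levels exact Poisson intervals. Cells are not replicates, so differences were left without a test or p-value. A gene was called at 2-fold between libraries or 1.5-fold between cycle classes, with 50 CPM or more in the higher group.

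The members and lists were chosen with earlier results of these data known. Genes named were, in each family, the 4 with the highest mean level, for each comparison the 5 (libraries) or 4 (cycle classes) highest and lowest ratios, and 3 of the pathway at each end. Hnrnpk, Sf3b4, Snrpa1, Lsm10, Srpk1 and the genes followed along the cycle bins were named after their values were seen. The ratios, their intervals and the calls were tried on simulated Poisson sums with set folds. Spread between cells, cell filters, thinning, cycle classes and the promoter search were not simulated. Other scalings, filters, cutoffs and cell sets were tried. The software was scanpy 1.11.5, SciPy 1.17.1, NumPy 2.4.6 and matplotlib 3.10.9 under Python 3.11.15, with pandas 2.3.3. Promoters are from RefSeq (GRCm38.p6) and gene positions from GENCODE M21.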

Additional observations from a re-analysis of the deposited data

How the results depend on the processing

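No paired analysis was possible because each population had 1 library, and for the same reason no replicate could be left out. The number of splicing factor genes called higher in pro-B moved with the scale, the set of cells and the fold threshold. Over CLP, 11 became 3 with totals without ribosomal and mitochondrial genes, 3 with median-of-ratios scaling, 5 in low-cycle cells and 32 at 1.5-fold. The shares of all genes were 12.3%, 11.9%, 21.5% and 38.3%, compared with 20.8% in the main setting. Over LMPP, 12 became 4, 4, 4 and 32 under the same settings. Of all genes 13.6%, 13.4%, 21% and 38.2% were then higher, compared with 21.5% in the main setting. In pro-B over LMPP 1 gene, Hnrnpll, was 2-fold lower once the minimum was 20 CPM (12.8% of all genes). For CLP over LMPP 1 gene was higher at 1.5-fold (10.5% of all genes). In S phase cells 21 higher became 13 with a cycle cutoff of 2 UMIs (11.5% of all genes). The 1 lower gene there became 0 with median-of-ratios scaling, equal weight per cell or cutoffs of 2 or 5 UMIs. It also became 0 with another thinning seed or cells of 3000 to 6000 UMIs. That count was 2 with all barcodes (19.4% of all genes) and 3 at the lower fold threshold tried (35.4% of all genes). In G2/M-rich cells 3 genes were lower at that threshold (37.8% of all genes). Among genes named as highest or lowest in a comparison, with an interval there that left out equality, these changed sign in another setting. In pro-B over LMPP they were Srsf11 (-0.0067 without ribosomal and mitochondrial genes, -0.020 with median-of-ratios scaling) and Hnrnpa0 (-0.0011 with median-of-ratios scaling, -0.10 in low-cycle cells). In pro-B over CLP it was Srsf5 (0.25 in low-cycle cells). In CPM among cells of 3000 to 6000 UMIs they were Hnrnpul1 (0.14 in S phase, 0.030 in G2/M-rich cells) and Sf3b1 (0.32 in G2/M-rich cells). Genes named for their level could change sign too in pro-B over CLP: Snrpf (-0.055 without ribosomal and mitochondrial genes) and Snrpg (-0.45 in low-cycle cells). Counting all members, those below equality went from 4 to 10 in pro-B over CLP and from 1 to 4 in pro-B over LMPP with totals without ribosomal and mitochondrial genes. The summed share in CLP over LMPP was -0.012 (log2) in low-cycle cells. The causes were not tested. Of the counts, 94 stayed within 1.5 times the main value and 20 moved. Of the summed and median values, 82 were rated the same, 31 moved and 1 reversed. Of the values of single genes, 451 were rated the same, 96 moved and 8 reversed. Without doublet calls, without the 5% of cells with the most UMIs or without cells carrying plasmacytoid dendritic and NK/innate lymphoid markers, 11, 11 and 14 genes passed 2-fold in pro-B over CLP. The shares of all genes were 20.8%, 21.8% and 24.0%. Genes near 50 CPM rest on 201 to 368 UMIs in a library and on about 38 in low-cycle pro-B cells.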
